A study of Mus musculus with 24 samples.

Results

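The interferon-inducible GTPases of the guanylate-binding protein (GBP) and immunity-related GTPase (IRG) families were followed in mouse macrophages and B cells through 8 of the 21597 gene symbols on the array, namely the GBPs Gbp1, Gbp2, Gbp3 and Gbp4 and the IRGs Igtp, Iigp1, Iigp2 and Tgtp. Their probes were those whose gene name in the scanner files was one of these symbols, which gave 9 probes, 1 per gene except for Tgtp with 2. All 8 genes were among the 17347 that were kept for testing, because there was a condition in which the Cy5 and the Cy3 signal of their probe both stood well above background. Gbp1 was kept only through the macrophages treated for 12 h, where it was high, so its 12 h rise was built into its selection.

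Total RNA of C57BL/6 cells was measured on 12 Agilent 2-colour arrays. Thioglycollate-elicited peritoneal macrophages (EPM) were collected by lavage 3 days after the injection and purified by adherence, bone marrow-derived macrophages (BMDM) were grown out of marrow with macrophage colony stimulating factor, and resting splenic B cells were what magnetic depletion of cells bearing CD43 or CD11b left behind. Cells were exposed for 1 h or 12 h to Kdo2 lipid A (KLA), the active part of lipopolysaccharide and an agonist of TLR4. The controls at 12 h and the 1 h control of BMDM received DMSO, whereas the early control of EPM and of B cells was labelled as untreated and served here as the control of the 1 h treatment. The 12 conditions had 2 replicates each, which the labels call biological and which shared an array as its Cy5 and Cy3 channels, and the 4 arrays of a cell type shared a slide. The spread between replicates therefore leaves out differences between arrays, and a difference between cell types cannot be told apart from a difference between slides.

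GBPs and IRGs are large GTPases that interferons induce in many cells, and they are known for cell-autonomous defence. In macrophages, GBPs assemble on the surface of cytosolic bacteria and on pathogen vacuoles and promote inflammasome signalling to lipopolysaccharide in the cytosol, and effector IRGs such as those of Iigp1 and Tgtp coat and break open vacuoles. The IRGM-type proteins, to which Igtp and Iigp2 belong, sit on the membranes of the host cell and hold the effectors in the inactive state there. Stimulation of TLR4 reaches this programme in part through the synthesis of interferon beta, which signals through its receptor to promoters that carry the interferon-stimulated response element (ISRE) or the gamma-activated site (GAS).

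The promoters of the members were compared by their motifs and by their letters. RefSeq promoter windows (GRCm38.p6, 250 bases before to 50 bases after the start) were found for 6 members under their current names, where the array's Gbp1, Iigp2 and Tgtp are Gbp2b, Irgm2 and Tgtp1. The letters GAAANNGAAA, the core of an ISRE, were searched on both strands, as were the letters TTCNNNGAA of a GAS, which read the same on both strands and share no base with the ISRE matches of the members. An ISRE match lay in a window of all 6, against 3.44% of the 32851 windows in the reference. The stretch around the match nearest to the start is given below for each, 5′ to 3′ on the strand of the gene, with ISRE and GAS matches in capitals.
Gbp1 (Gbp2b), chr3:142594680-142594749, plus strand: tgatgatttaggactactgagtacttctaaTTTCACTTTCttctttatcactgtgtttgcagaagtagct
Gbp2, chr3:142620574-142620643, plus strand: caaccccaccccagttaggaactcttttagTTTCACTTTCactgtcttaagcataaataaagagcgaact
Gbp3, chr3:142559975-142560044, plus strand: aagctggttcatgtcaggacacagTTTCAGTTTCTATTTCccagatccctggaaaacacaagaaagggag
Igtp, chr11:58199492-58199561, plus strand: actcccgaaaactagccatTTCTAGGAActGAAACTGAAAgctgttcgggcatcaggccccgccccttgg
Iigp2 (Irgm2), chr11:58214883-58214952, plus strand: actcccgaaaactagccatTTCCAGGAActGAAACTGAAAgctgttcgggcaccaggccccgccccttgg
Tgtp (Tgtp1), chr11:48992284-48992353, minus strand: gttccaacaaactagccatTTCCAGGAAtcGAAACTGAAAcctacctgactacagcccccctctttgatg

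The stretches fell into a pair of layouts that followed the families. In the 3 GBPs the ISRE letters were on the opposite strand, in Gbp3 as a pair of overlapping matches, and no GAS match was in the window. In the 3 IRGs the ISRE letters were on the strand of the gene and a GAS match ended 2 bases before them. A GAS match was in 8.3% of all windows and both motifs were in 0.454%, and in 8 windows, or 0.0244%, the gap was at most 2 bases. Those of Tgtp2, Gm12185, Ifitm3, Usp17lc and Usp17ld were the others, named here after they were seen. The stretches of Igtp and Iigp2 were identical at 68 of 70 bases, and that of Tgtp matched Igtp at 42 and Iigp2 at 44. Read as printed, pairs of GBPs matched at 22 to 31 bases, and a GBP matched an IRG at 6 to 14. The stretches are aligned at their ISRE match, so its fixed letters match within a family and mismatch between families by construction. Opposite strands were not compared. The second start listed for Gbp3 had neither motif. A match of letters is a description of the sequence and was not tied to binding by any measurement here.

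The levels below are log2 intensities after normalization, with the Cy5 and then the Cy3 replicate, and a level of one probe cannot be set against that of another. Between 57.4% and 65% of probes were well above background in a channel and no spot was saturated. Macrophage markers were well above background in 8 of 8 cases in every EPM and BMDM condition, with summed intensities between 507839 and 672139. In B cell conditions 6 or 7 of the 8 were, with sums of 3305 to 7072, and Itgam, which encodes the CD11b used for depletion, was in none. All 8 B cell markers were well above background in B cells (summed intensity 207002 to 248288). In macrophage conditions 3 to 5 of them were well above background in both channels (609 to 4010), and Cr2 and Fcer2a were in none. Of the neutrophil markers, 6 of 6 were well above background in BMDM (10078 to 24888) and 4 of 6 in EPM (1705 to 3430), in which Ngp was never above it. Of 7 NK cell markers, 2 or 3 were well above background in both channels of a macrophage condition, and Ncr1, Gzma and Eomes were in none (466 to 1149). T cell markers summed to 937 to 1420 in macrophages, where 3 to 6 of 8 were well above background. In B cells 4 or 5 of the 8 were, with sums of 1755 to 3837. In the authors' table of normalized values, the 4 columns named for KLA at 1 h and for the 12 h control of B cells matched the scanner channels of each other's condition (r of at least 0.97 across probes) and not their own (-0.77 to -0.71), while the other 20 columns matched their own (at least 0.96). The labels of the scanner files were kept, and B cell results of the members are also given with these labels exchanged.

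In unstimulated cells, the IRG genes were lower in EPM than in BMDM, and Gbp1, Gbp2 and Gbp3 did not pass the threshold. In the early controls, 5 of 8 members were lower in EPM than in BMDM and none was higher (limma, adjusted p under 0.05), where 29.3% of all genes tested were lower. The median difference was -0.94 on the log2 scale over the members, and by the probes used the 4 largest differences were those of the IRGs. The early control had DMSO for 1 h in BMDM and was untreated in EPM and B cells. Differences between the 12 h controls of EPM and BMDM, which both had DMSO, are given further below.

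Iigp1, the effector IRG also known as Irga6, stood at 6.66 and 6.58 in early EPM and at 9.74 and 9.46 in BMDM. Its log2 difference was -2.98 (standard error 0.09, adjusted p = 1.42e-15). Tgtp, the effector also known as Irgb6, stood at 7.34 and 7.28 in EPM and at 9.98 and 9.89 in BMDM, a difference of -2.63 (standard error 0.06, adjusted p = 2.39e-17). Both macrophage types had the transcripts above background, and their replicates were far from overlapping. The other probe of Tgtp gave only -0.24 (adjusted p = 0.0184). Iigp2, a regulatory IRG, was at 10.30 and 9.95 in EPM against 12.34 and 11.94 in BMDM (-2.01, adjusted p = 2.04e-09). Igtp was at 10.96 and 10.87 in EPM against 12.49 and 12.44 in BMDM (-1.55, adjusted p = 1.83e-12).

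Of the GBPs, Gbp2 was at 9.62 and 9.51 in EPM and at 9.80 and 9.65 in BMDM, a difference of -0.16 that did not pass the test (standard error 0.08, adjusted p = 0.116). Gbp3 replicates overlapped between the macrophage types, at 9.49 and 9.39 in EPM and 9.54 and 9.39 in BMDM. With no quantile normalization, Gbp2 (-0.30, adjusted p = 0.00466) and Gbp3 (-0.16, adjusted p = 0.0493) passed as lower in EPM. Gbp4 was not well above background in any EPM control, and its level in BMDM of 6.41 and 6.26 was at least 1.25-fold higher (adjusted p = 0.000921). The call was lost in the authors' table (-0.43, adjusted p = 0.0751) and with array means as samples (-0.34, adjusted p = 0.358). Gbp1, at 6.03 and 5.95 in EPM and 5.90 and 5.95 in BMDM, was not well above background in either. As these are bulk samples, fewer expressing cells and less RNA per cell cannot be told apart. Of the 6 neutrophil markers above, 5 were lower in EPM than in BMDM and 1 was higher. Of 8 B cell markers, 4 were lower in EPM and none higher, with sums of 656 to 670 in EPM and 3737 to 4010 in BMDM. Of all genes, 29.3% were lower. Summed dendritic cell markers went the other way, at 9265 to 9715 in EPM and 766 to 774 in BMDM, with Itgax as the 1 of 4 tested that was higher in EPM and Siglech not well above background. The part of any of these lists in the difference was not tested.

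B cells had another basal order. Gbp3 was at 11.79 and 11.95, which was 2.43 above EPM (standard error 0.07, adjusted p = 1.28e-16) and 2.41 above BMDM on the log2 scale. Gbp4 was at 7.47 and 7.62, at least 2.88-fold above EPM, where it was not well above background, and 2.31-fold above BMDM. These GBPs were the members with the clearest excess in B cells. Iigp1 was not well above background in any of the 8 B cell channels, and its level in BMDM was at least 11.4-fold higher. Iigp2 at 9.32 and 9.49 was below both macrophage types (-0.72 against EPM and -2.74 against BMDM). Igtp, at 10.87 and 10.95, overlapped with EPM and differed from BMDM by -1.55 (adjusted p = 4.94e-13). Tgtp at 8.59 in both channels lay between the macrophage types, with differences of 1.28 against EPM and -1.35 against BMDM. Gbp2, at 9.89 and 9.73, passed the test against EPM (0.25, adjusted p = 0.0125) and not against BMDM (0.09, adjusted p = 0.354). The call against EPM was lost with the processed signal (0.19, adjusted p = 0.126), with array means (0.19, adjusted p = 0.691), without B control replicate 1 (0.16, adjusted p = 0.149) or without EPM control replicate 2 (0.19, adjusted p = 0.103). With no quantile normalization Gbp2 differed from EPM by 0.05 (adjusted p = 0.562) and from BMDM by -0.25 (adjusted p = 0.012), so its order is not settled. Against EPM, 5 members were higher in B cells and 2 lower, where 38.5% and 38.6% of all genes were. Against BMDM, 3 were higher and 4 lower, where 37.5% and 39.1% were. Gbp1 is counted among those higher in both, but it was not well above background in any of these conditions and has no fold. Both calls of Gbp1 were lost in the authors' table, with array means and without B control replicate 1 (0.10 against EPM and 0.16 against BMDM), and that against EPM also without EPM control replicate 2 (0.13).

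Iigp1 was lowest in B cells, higher in EPM and highest in BMDM. Igtp was highest in BMDM and did not pass between B cells and EPM, although it did with no quantile normalization (-0.24, adjusted p = 0.00628), and Iigp2 was lowest in B cells, then EPM, then BMDM. By the probe used, Tgtp was lowest in EPM, then B cells, then BMDM, whereas its other probe overlapped between B cells and EPM (-0.04, adjusted p = 0.693). Gbp3 overlapped between EPM and BMDM and was highest in B cells, Gbp4 was lowest in EPM and highest in B cells, and Gbp2 neighbours in the order EPM, BMDM and B cells did not pass the test.

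**Figure D1:**
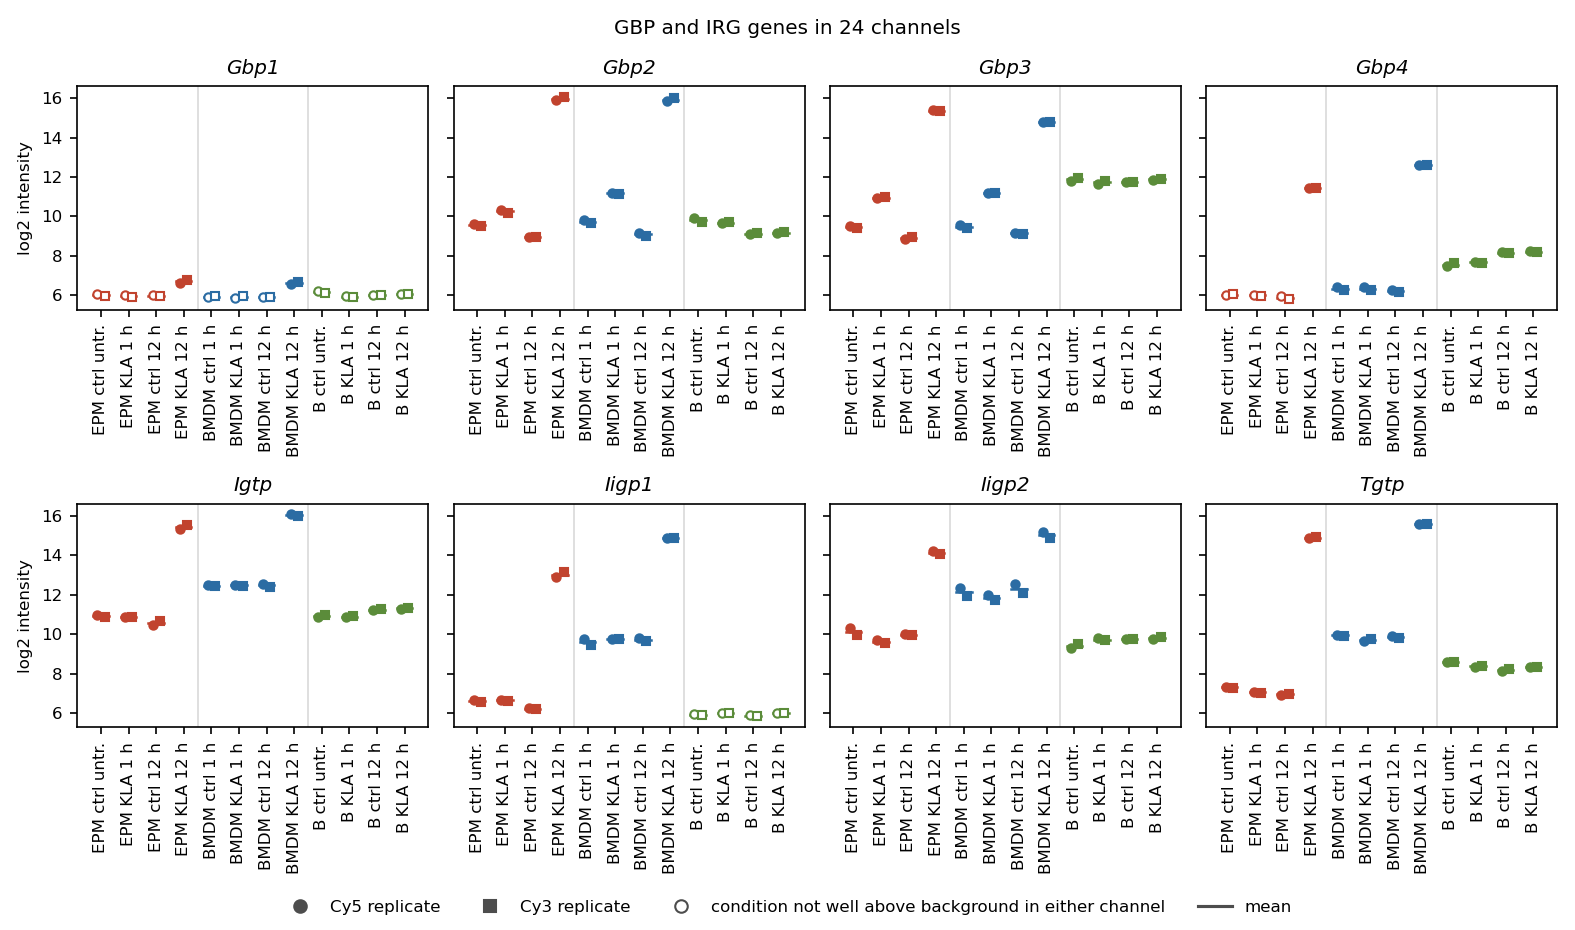
Log2 intensity (vertical axis) of each member in the Cy5 and Cy3 replicate (circle and square) of the 12 conditions, with the mean as a bar and open symbols where the condition was not well above background in either channel. The 12 h KLA conditions of EPM and BMDM stand above all other conditions of the same macrophage type in every panel, whereas B cells show no such step, with Gbp3 at a mean of 11.87 in both the first and the last B cell condition.

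Some members differed between the early and the 12 h controls, which in EPM and B cells also differ by DMSO. In EPM, 5 of 8 were lower in the 12 h control than in the untreated control, where 8.31% of all genes were lower. Gbp2 went from 9.62 and 9.51 to 8.97 and 8.96, a change of -0.60 (adjusted p = 4.36e-05), and Gbp3 changed by -0.56. Iigp1, Tgtp and Igtp changed by -0.39, -0.37 and -0.34. The other probe of Tgtp gave -0.11 (adjusted p = 0.451), and the call of Igtp was lost without 12 h control replicate 1 (-0.26, adjusted p = 0.0588). In BMDM, 2 members were lower, where 9.99% of all genes were, Gbp2 by -0.63 (adjusted p = 2.12e-05) and Gbp3 by -0.34 (adjusted p = 0.00122). Gbp2 thus fell in the controls of both macrophage types. In B cells, Gbp4 (0.61) and Igtp (0.33) were higher and Gbp2 (-0.71) and Tgtp (-0.39) lower in the 12 h control, where 25.0% of genes were higher and 22.4% lower. With the replicate block Gbp1 (-0.16, adjusted p = 0.0353) and Iigp2 (0.34, adjusted p = 0.0119) were called too, making 6 members. Gbp1 was also called without untreated control replicate 2 (-0.23, adjusted p = 0.0243). The call of Igtp was lost with the processed signal (0.21, adjusted p = 0.066) and with no quantile normalization (0.17, adjusted p = 0.0608), and the other probe of Tgtp gave -0.14 (adjusted p = 0.166). Between the same controls, summed macrophage markers went from between 3305 and 3932 to between 7024 and 7072, with 3 of 8 higher and 3 lower, and T cell markers from between 1755 and 2078 to between 3438 and 3837, with 2 of 7 tested higher. Their part in the change was not tested. With the B cell labels exchanged, 2 members were called, where 5.17% of all genes were, and Igtp became -0.03. In the KLA comparisons below, the 12 h treatment is set against the 12 h DMSO control. The 1 h treatment is set against the early control, which was untreated in EPM and B cells and had DMSO for 1 h in BMDM.

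At 1 h, KLA raised Gbp2 and Gbp3 in both macrophage types and no other member. In EPM, 2 of 8 members were higher, where 9.39% of all genes were, and 2 were lower, where 19.7% were. In BMDM, 2 were higher, where 11.0% of all genes were, and 1 was lower, where 17.6% were. The median change of the members was -0.04 in EPM and 0.01 in BMDM, against -0.05 and -0.03 over all genes tested. Summed neutrophil markers went up over the same comparisons, from between 2483 and 2499 to between 3342 and 3430 in EPM, with 2 of 6 called higher, and from between 14470 and 15039 to between 21229 and 24888 in BMDM, with 5 of 6 called higher. Their part in the rise was not tested.

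Gbp3, whose protein is recruited to bacteria and vacuoles with other GBPs, rose from 9.49 and 9.39 to 10.93 and 10.96 in EPM, a change of 1.51 (standard error 0.07, adjusted p = 4.46e-12), or 2.84-fold. In BMDM it rose from 9.54 and 9.39 to 11.16 and 11.19, a change of 1.71 (adjusted p = 6.38e-13). Gbp2, a GBP that carries a prenyl anchor, rose from 9.62 and 9.51 to 10.32 and 10.18 in EPM, or 1.61-fold (log2 change 0.68, standard error 0.08, adjusted p = 4.75e-06). In BMDM it rose further, from 9.80 and 9.65 to 11.18 and 11.15, or 2.72-fold (log2 change 1.44, adjusted p = 1.81e-10). The early rise of Gbp2 was smaller in EPM than in BMDM by a test of the difference itself (-0.76, standard error 0.12, adjusted p = 0.000232), and it was the only member past the threshold, where 5.49% of all genes had the smaller response in EPM. With array means it was -0.78 and did not pass. The 1 h control had DMSO in BMDM and was untreated in EPM, which cannot be told apart from cell type in this difference. For Gbp3 the difference was -0.21 (standard error 0.10, adjusted p = 0.221).

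No IRG passed the test upward at 1 h with all replicates. Igtp stood at 10.87 and 10.86 in treated EPM, overlapping with its control, and at 12.50 and 12.46 in treated BMDM. Iigp1 changed by 0.03 in EPM and 0.16 in BMDM (adjusted p = 0.855 and 0.207). Without BMDM control replicate 1, Iigp1 in BMDM was at 0.30 and passed (adjusted p = 0.0319). Tgtp was lower, from 7.34 and 7.28 to 7.06 and 7.02 in EPM (-0.27, adjusted p = 0.00126) and from 9.98 and 9.89 to 9.67 and 9.78 in BMDM (-0.21, adjusted p = 0.00925), but its other probe gave 0.05 and 0.03. The BMDM call was also lost without control replicate 1 (-0.17, adjusted p = 0.11) or treated replicate 1 (-0.16, adjusted p = 0.114). Iigp2 was lower in EPM (-0.52, standard error 0.15, adjusted p = 0.0165), and the call was lost without control replicate 1 (-0.34, adjusted p = 0.209) or without treated replicate 2 (-0.44, adjusted p = 0.116). In BMDM the -0.29 of Iigp2 did not pass the test (adjusted p = 0.191), but did in the fit with the replicate block (adjusted p = 0.0419). Changes of Gbp4 and Gbp1 lay between -0.05 and 0.00.

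The 1 h calls take both channels of an array as independent samples. With array means as the samples and the pair of control arrays of a cell type as replicates, no member passed at 1 h in either macrophage type, although 1 in EPM and 2 in BMDM had an unadjusted p under 0.05. In that fit 0.951% of all genes were called in EPM and 0.571% in BMDM, with Gbp3 at 1.79 in EPM (adjusted p = 0.0813) and 1.88 in BMDM (adjusted p = 0.0805). Gbp2 was then at 0.98 in EPM (adjusted p = 0.596) and 1.76 in BMDM (adjusted p = 0.278). That fit counts the early and the 12 h control as replicates, although Gbp2 differed between them by -0.60 in EPM and -0.63 in BMDM. The change between controls is thus part of its spread, and their mean is its control. The loss of calls therefore cannot show what differences between arrays alone would do.

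At 12 h, all 8 members were higher with KLA in both macrophage types, where 19.6% of all genes were higher in EPM and 28.6% in BMDM. For Gbp1 this follows from how it was kept for testing. The median change was 6.04 in EPM and 5.41 in BMDM, against -0.06 and -0.03 over all genes tested. The replicates of treated and control cells did not overlap for any of the 8, as was so for 74.9% of all genes in EPM and 81.0% in BMDM. With array means as samples, all 8 were still called in both types, where 5.62% and 9.28% of all genes were higher, with adjusted p-values up to 0.023 in EPM and 0.0157 in BMDM. Summed NK cell marker intensities went from 466 and 467 to 1039 and 1141 in EPM and from 474 and 483 to 1121 and 1149 in BMDM, with Ncr1, Gzma and Eomes not well above background. Of the 5 NK cell markers tested, only 1 was called higher in EPM and none lower, and in BMDM 1 was higher and 1 lower. Neutrophil markers in BMDM rose from between 10078 and 11663 to between 20024 and 22967, with 4 of 6 called higher. Summed dendritic cell markers in EPM went from between 12573 and 14004 to between 4631 and 4703, with Itgax lower and Ly6d higher of the 4 tested. Summed B cell markers in BMDM went from between 3611 and 3797 to between 1593 and 1613. Of these 8, 1 was called lower (Cd79b) and 2 higher, among them Cd79a. The part of these lists in the rise of the members was not tested.

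Among the IRGs, Tgtp by the probe used went from 6.93 and 6.95 to 14.86 and 14.94 in EPM, or 249-fold (log2 change 7.96, standard error 0.06, adjusted p = 9.9e-24). In BMDM it went from 9.90 and 9.80 to 15.60 and 15.61, or 54-fold (5.76, adjusted p = 9.38e-22). Iigp1 went from 6.26 and 6.18 to 12.88 and 13.14 in EPM, or 110-fold (6.79, standard error 0.09, adjusted p = 1.04e-20). In BMDM it went from 9.82 and 9.64 to 14.87 and 14.89, or 35.5-fold (5.15). The other probe of Tgtp gave smaller changes, 2.67 in EPM and 2.82 in BMDM, so no order of size among the IRGs is drawn. Igtp, which encodes Irgm3, went from 10.49 and 10.65 to 15.36 and 15.54 in EPM (4.87, adjusted p = 1.12e-19) and from 12.57 and 12.40 to 16.10 and 15.99 in BMDM (3.56, adjusted p = 1.16e-17). Iigp2, which encodes Irgm2, went from 10.01 and 9.96 to 14.20 and 14.05 in EPM (4.14, standard error 0.15, adjusted p = 5.42e-14) and from 12.56 and 12.09 to 15.19 and 14.88 in BMDM (2.71, adjusted p = 1.94e-11).

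Among the GBPs, Gbp2 went from 8.97 and 8.96 to 15.88 and 16.08 in EPM, or 129-fold (7.01, adjusted p = 4.49e-21), and from 9.17 and 9.01 to 15.84 and 16.02 in BMDM, or 114-fold (6.84, adjusted p = 9.48e-21). Gbp3 went from 8.83 and 8.93 to 15.39 and 15.35 in EPM (6.49, 89.9-fold) and from 9.17 and 9.08 to 14.79 and 14.80 in BMDM (5.67, 50.9-fold). Gbp4 reached 11.46 and 11.43 in EPM, at least 41.9-fold above a control that was not well above background (5.93 and 5.78), and 12.58 in both BMDM channels, 82.9-fold above a control of 6.28 and 6.14. Gbp1 reached 6.61 and 6.78 in EPM and 6.57 and 6.66 in BMDM, at least 1.56-fold and 1.53-fold above controls that were not well above background. The offset added during background correction compresses the changes of dim genes, which bears on the values of Gbp1 and Gbp4. It also bears on those of Iigp1 and Tgtp in EPM, whose 12 h controls had means of 6.22 and 6.94.

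Tgtp had another probe, and the pair disagreed in size. Both lie on chromosome 11 of mm8 on the minus strand, the one used for the gene at 48830094 to 48830153 and the other at 48829508 to 48829567, and both carry the accession of Tgtp1, a gene with the near-identical neighbour Tgtp2. The other probe went from 6.56 and 6.36 to 9.15 and 9.12 in EPM at 12 h, a change of 2.67, and from 6.82 and 6.70 to 9.48 and 9.67 in BMDM, a change of 2.82. Its direction was the same as that of the probe used. It did not show the basal difference between EPM and BMDM to the same extent (-0.24), and its response at 12 h did not differ between them (-0.14, adjusted p = 0.342).

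**Figure D2:**
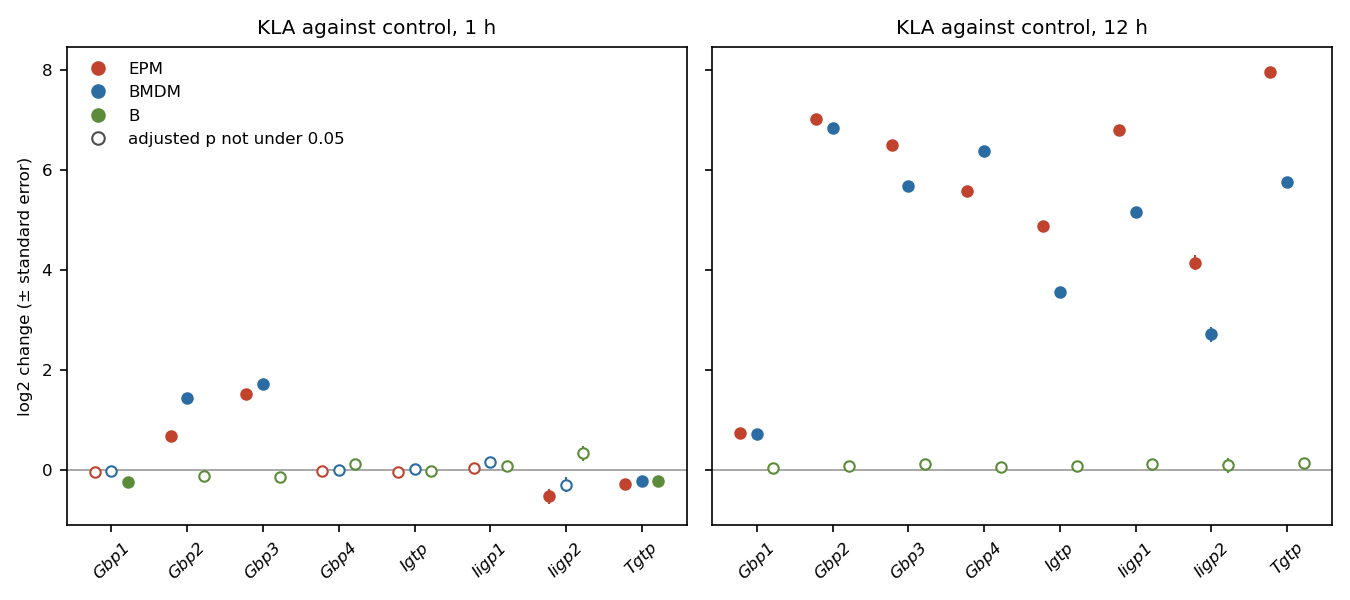
Log2 change with KLA against the control (vertical axis, bars are standard errors of the fit, n = 2 channels per condition) for each member in EPM, BMDM and B cells at 1 h and at 12 h, with open circles where the adjusted p was not under 0.05. In macrophages only Gbp2 and Gbp3 are past the threshold above 0 at 1 h, and every member is at 12 h, from 0.72 for Gbp1 to 7.96 for Tgtp.

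Every member had a larger change at 12 h than at 1 h in both macrophage types, by a test of the difference between the responses. All 8 were past the threshold in that direction in EPM, where 19.4% of all genes were, and in BMDM, where 24.5% were. For Gbp1, kept only through the macrophages treated for 12 h, this was built into its selection. The difference of Tgtp was 8.24 in EPM and 5.97 in BMDM, and that of Gbp3, which had begun to rise at 1 h, was 4.99 and 3.96. The 12 h responses tested here are the same measurements as those described above.

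By the probes used, the response at 12 h was larger in EPM than in BMDM for Gbp3 and the 4 IRGs and smaller for Gbp4. For the other probe of Tgtp the difference was -0.14 (adjusted p = 0.342). These 5 members compare with 23.2% of all genes larger in EPM, and Gbp4 with 24.6% smaller. The difference was 2.20 for Tgtp (standard error 0.08, adjusted p = 4.32e-13), 1.64 for Iigp1 (adjusted p = 4.61e-09), 1.43 for Iigp2 (adjusted p = 2.94e-05), 1.31 for Igtp (adjusted p = 9.43e-09) and 0.82 for Gbp3 (adjusted p = 1.3e-06). Gbp2 had a difference of 0.18 (standard error 0.12, adjusted p = 0.238) and Gbp1 of 0.00 (adjusted p = 0.983). With no quantile normalization the difference of Gbp2 was 0.41 and passed (adjusted p = 0.00672). The -0.79 of Gbp4 (adjusted p = 4.71e-06) turned to 1.16 with the scanner's processed signal, so it has no settled direction. With array means as samples, none of these differences passed, where 0.617% of all genes did, with Tgtp at 2.06 (adjusted p = 0.0852).

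The larger response of the IRGs in EPM went with their lower control, which is part of the same contrast. In the 12 h controls, the EPM mean minus the BMDM mean was -3.51 for Iigp1, -2.91 for Tgtp, -2.34 for Iigp2 and -1.91 for Igtp. With KLA the same differences were -1.87, -0.71, -0.91 and -0.60. By these probes the gap in each IRG was narrower with KLA, with EPM still below BMDM. By the other probe of Tgtp it was -0.30 in the controls and -0.44 with KLA, so for Tgtp the narrowing was not seen with both probes. For the GBPs the difference with KLA was 0.05 for Gbp2, 0.58 for Gbp3, 0.08 for Gbp1 and -1.14 for Gbp4, against controls at -0.12, -0.25, 0.08 and -0.35. The differences between treated cells were not tested and are means of 2 replicates each on 1 slide per cell type.

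**Figure D3:**
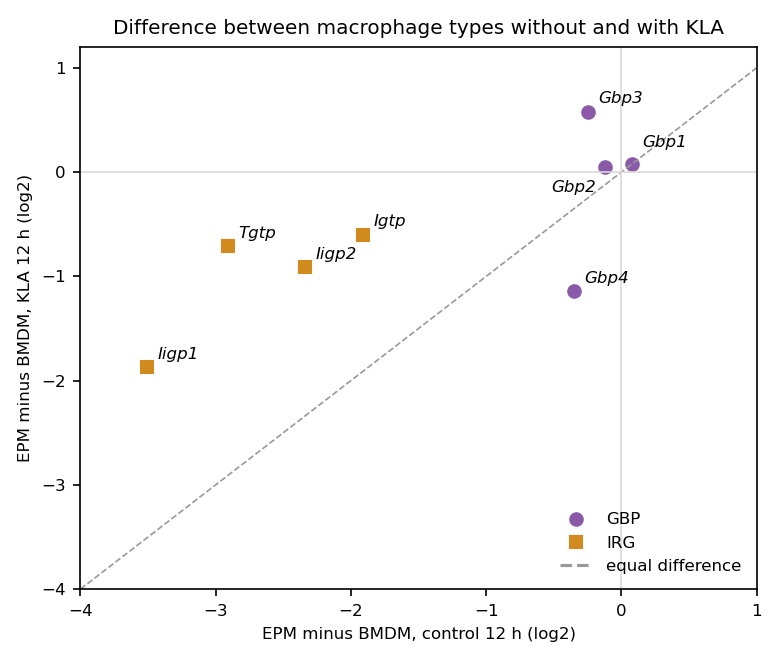
Difference of the mean log2 intensity between EPM and BMDM in the 12 h controls (horizontal axis) and with KLA for 12 h (vertical axis) for the 8 members by the probes used, GBPs as circles and IRGs as squares, with the dashed line where both are equal. The 4 IRGs lie to the left, from -3.51 to -1.91, and above the line, while Gbp4 lies below it.

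In B cells, no member was called higher with KLA under the labels kept. At 1 h, Tgtp went from 8.59 in both channels to 8.35 and 8.41 (-0.21, adjusted p = 0.0434) and Gbp1 was called lower without being well above background in any B cell channel, so that 2 of 8 were lower, where 2.45% of all genes were. Neither call was made with the scanner's processed signal or with array means. The call of Tgtp was lost without any 1 of the 4 replicates (-0.24 to -0.18, adjusted p = 0.0914 to 0.289), and that of Gbp1 without untreated control replicate 1 (-0.17) or without either treated replicate (-0.26 and -0.22). Gbp3, the member with the high B cell level, went from 11.79 and 11.95 to 11.64 and 11.79 (-0.15, adjusted p = 0.222). Iigp2 went from 9.32 and 9.49 to 9.79 and 9.68 (0.33, adjusted p = 0.255), which passed in the fit with the replicate block (adjusted p = 0.048).

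At 12 h, no member was called in B cells, where 2.81% of all genes were higher and 2.48% were lower. Changes ran from 0.04 to 0.14, with a median of 0.09. Gbp2 went from 9.08 and 9.13 to 9.13 and 9.21, and Igtp from 11.21 and 11.26 to 11.29 and 11.35. With limma 1 member, Tgtp at 0.14, had an unadjusted p under 0.05, and with the scanner's processed signal none was called either. With the labels exchanged, 4 members were called at 1 h, where 47.4% of all genes were, and 3 at 12 h, where 49.1% were. Gbp4 (0.55) and Igtp (0.44) were then higher at 12 h and Gbp2 lower (-0.51).

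The other interferon-inducible GTPases on the array moved with the members at 12 h. Of 32 listed names, 14 were tested. In EPM, 12 were higher at 12 h and 1 lower (median 4.05), and in BMDM 12 were higher and none lower (median 3.11). Of all genes, 19.6% were higher and 34.3% lower in EPM, and 28.6% and 36.3% in BMDM. The antiviral dynamin-like GTPases Mx1 and Mx2 changed by 6.77 and 6.57 in EPM and by 5.16 and 4.72 in BMDM. Irgq and Irgc1, IRG relatives that are not known as interferon-inducible, gave -0.37 (adjusted p = 0.00101) and -0.08 (adjusted p = 0.312) in EPM. Irgc1 was not well above background in any macrophage condition, so its value says nothing of a response. At 1 h, 6 of the 14 were higher in EPM and 7 in BMDM, where 9.39% and 11.0% of all genes were. Among them was Mx2, by 2.36 in EPM. The 1 lower in BMDM, where 17.6% of all genes were, was Irgq (adjusted p = 4.82e-14). It was not well above background there with KLA and was at least 4.99-fold lower. Both of its treated channels are from 1 array, and in EPM Irgq was higher at 1 h (0.26, adjusted p = 0.0225). In B cells 2 were higher at 1 h and 1 at 12 h, where 2.72% and 2.81% of all genes were. In the early controls 11 of 14 were lower in EPM than in BMDM and none higher (median -0.94), where 29.3% of all genes were lower.

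**Figure D4:**
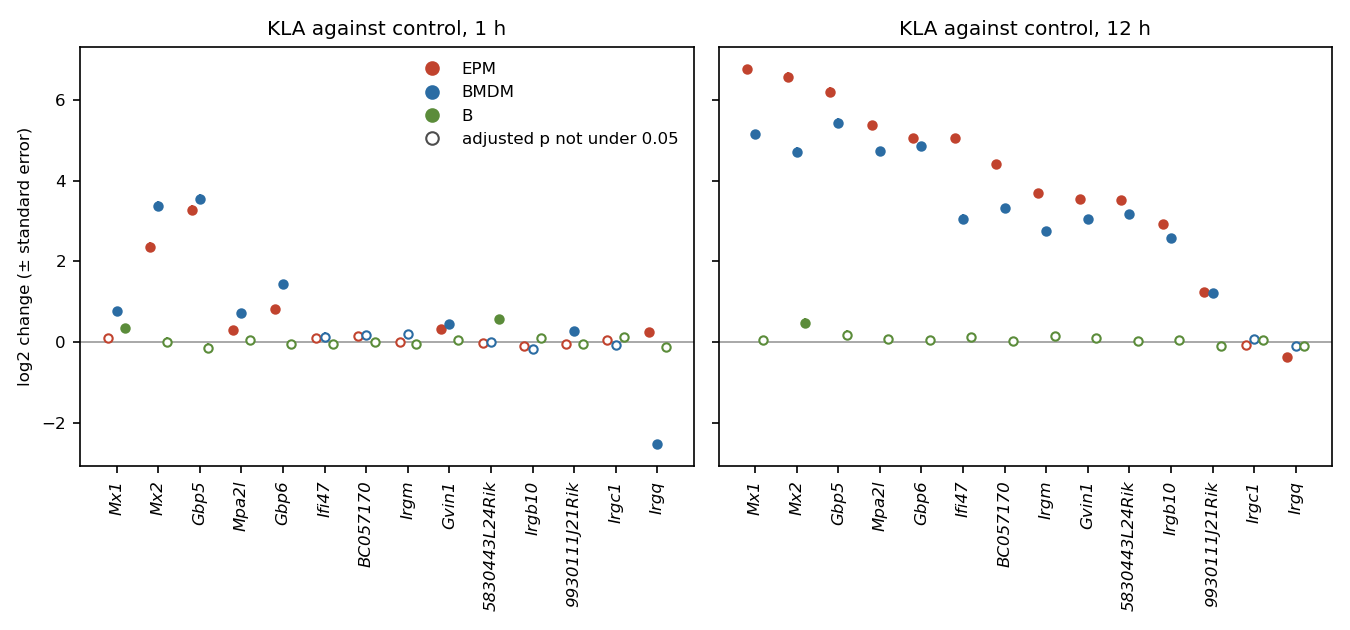
Log2 change with KLA against the control (vertical axis, bars are standard errors) for 14 other GBP, IRG and Mx-type genes, ordered by the change in EPM at 12 h, in the 3 cell types at 1 h and at 12 h, with open circles where the adjusted p was not under 0.05. At 12 h, 12 of 14 are higher in EPM and in BMDM, where 19.6% and 28.6% of all genes are. Changes run from Mx1 at 6.77 in EPM downward, whereas B cells lie near 0.

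Transcripts of interferon and IL-12 ligands were read on the same arrays, and their part in the changes of the members was not tested. Ifnb1, which encodes interferon beta, was not well above background in EPM controls and reached a mean of 13.52 at 1 h, at least 181-fold higher (adjusted p = 3.24e-20), and 7.34 at 12 h, at least 2.32-fold higher. In BMDM it reached 15.34 at 1 h, at least 575-fold higher, and 10.46 at 12 h, a log2 change of 4.32. In B cells Ifnb1 was not well above background at either time. Ifng, which encodes interferon gamma, reached a mean of 8.68 in EPM at 12 h, at least 6.16-fold above a control that was not well above background (adjusted p = 3.77e-14), and 6.24 in BMDM, at least 1.15-fold higher. Il12a, which encodes a subunit of IL-12, changed by 2.87 in EPM at 12 h, to a mean of 9.13. In B cells both were well above background with and without KLA and neither passed the test. Ifng had means of 8.77 in the untreated control and at 1 h, 9.87 in the 12 h control and 9.71 with KLA for 12 h, and Il12a of 9.99, 9.91, 9.38 and 9.38 in the order untreated, KLA 1 h, control 12 h and KLA 12 h. Of 15 tested interferon and IL-12 ligand genes, 4 were higher in EPM at 1 h and 11 in BMDM, and 6 and 9 at 12 h, with the interferon alpha genes open to shared hybridisation. Of all genes, 9.39% in EPM and 11.0% in BMDM were higher at 1 h, and 19.6% and 28.6% at 12 h. Ifna2 (-0.40) and Ifnab (-0.14) had the smallest values in EPM at 12 h.

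Among 15 genes of interferon receptors and JAK-STAT signalling, 13 were higher and 1 lower in EPM at 12 h (median 0.86), and 12 and 1 in BMDM (median 0.78). Of all genes, 19.6% were higher and 34.3% lower in EPM, and 28.6% and 36.3% in BMDM. At 1 h, 6 were higher and 2 lower in EPM, where 9.39% and 19.7% of all genes were. In BMDM 5 were higher and 2 lower at 1 h, where 11.0% and 17.6% of all genes were. The feedback inhibitors Socs3 (4.03) and Socs1 (3.70) changed the most in EPM at 12 h, Jak1 was at 0.05, and the receptor gene Ifngr1 changed by -1.24. Of 14 tested transcription factors of GAS and ISRE promoters, 11 were higher and 2 lower in EPM at 12 h, and 9 and 2 in BMDM, against the same shares of all genes at 12 h. Irf1 changed by 2.49 in EPM and 2.74 in BMDM at 1 h already, and by 3.73 and 2.31 at 12 h. Irf7 and Batf2 did not pass at 1 h in EPM and changed by 5.64 and 4.69 at 12 h, while Irf8 (-0.85) and Irf3 (-0.43) were lower. In B cells, 1 gene of each of these 3 lists was higher at 12 h and none was lower, where 2.81% and 2.48% of all genes were.

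Genes of the machinery with which these GTPases work went in both directions, as did all genes. Of 19 tested genes of ATG8 conjugation, prenylation and cytosolic lipopolysaccharide sensing, 8 were higher and 7 lower in EPM at 12 h (median -0.09), and 6 and 4 in BMDM (median 0.04). Of all genes, 19.6% were higher and 34.3% lower in EPM, and 28.6% and 36.3% in BMDM. The counts are not read as a result about this list. Casp4, the mouse caspase that senses lipopolysaccharide, changed by 3.75 in EPM and 2.38 in BMDM, and Casp1 by 2.05 and 1.82. Atg7 (-1.01) and Map1lc3b (-0.91), of ATG8 conjugation, were lower in EPM.

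Across the 12 condition means the members had similar profiles. The 28 pairs had a median Pearson r of 0.87 and a lowest r of 0.54. Tgtp (0.99) and Igtp (0.98) were closest to the mean profile of the members, with Gbp3 (0.82) farthest. That mean includes the member compared, and members with a larger range weigh more in it, so these r are partly built in. The genes outside the members with the most similar profile were Pla1a (r = 0.994), Plec1 (0.991), E430029J22Rik (0.99), Ly6f (0.985) and Mov10 (0.985), with changes in EPM at 12 h of 4.09, 3.04, 3.45, 3.19 and 3.02. The points share arrays, slides and normalization and are dominated by the pair of treated macrophage conditions at 12 h, so these values are a description.

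The remaining probes are placed on mm8 as follows. Those of Gbp3, Gbp1 and Gbp2 lie in this order on the plus strand of chromosome 3, at 142510494 to 142510553, 142556319 to 142556378 and 142575141 to 142575200. That of Gbp4 lies on the minus strand of chromosome 5 at 105358363 to 105358422, in a cluster with close paralogs whose RNA it may also bind. Those of Igtp (58023620 to 58023679) and Iigp2 (58038757 to 58038816) lie beside each other on the plus strand of chromosome 11. Each probe carries the RefSeq accession of its gene, and whether it lies in an exon or untranslated region was not examined.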

How the data were processed

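Of the files, the authors deposited scanner intensity tables made with Agilent Feature Extraction 9.5.3.1, with the mean intensity, median background and processed intensity of 43379 spots that are not controls (41174 probes), and a table of normalized intensity values on a linear scale for 38516 probes, whose normalization is not given in the sources used here. The members and gene lists were chosen with earlier results of these data known.

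Background was corrected with normexp (offset 50), dyes were balanced by loess within arrays, mean intensities were quantile normalized between arrays, and log2 values of single channels were computed from the deposited intensities. Spots flagged as outliers were set missing. Of 34850 probes with 1 of 21597 symbols, the probe with the highest mean stood for each gene, and genes were kept whose probe had both replicates of some condition well above background. One coefficient per condition was fitted with limma 3.58.1 in R 4.3.3 (12 residual degrees of freedom, Benjamini-Hochberg adjustment over all 17347 genes, threshold 0.05), after the fit was tested on simulated data. The paper names no model for these arrays, so the fit follows the usual practice for single channels. The number of arrays limits the precision.

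For a condition in which neither channel was well above background, folds are given as lower bounds. The dim value used is that of the gene itself or, if this is smaller, the faintest signal that counted as well above background in its channel (5.44 to 6.16 on the log2 scale). Besides the 8 members with each probe, the text names up to 4 genes a list (the 2 largest and the 2 smallest changes in EPM at 12 h) with Ifnb1 and Irf1, and the 5 genes most like the members in profile. Another gene that the rule names is not reported here. Across probes, Cy5 minus Cy3 correlated between arrays in all 66 pairs (0.23 to 0.59), so the dye, which is the replicate name the conditions share, pairs the channels, and a fit with it as a block was made. The alternatives were another offset (16), the processed signal, no quantile normalization, the authors' table, no filter, the mean of probes or every probe, the block, array means as samples, centring, exchanged B cell labels and leaving out each replicate.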

Additional observations from a re-analysis of the deposited data

Results flagged for a closer look

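The response to KLA differed between EPM and BMDM for 7 values. At 1 h the rise of Gbp2 was smaller in EPM (difference of the log2 changes -0.76). At 12 h the rise was larger in EPM for Tgtp (2.20), Iigp1 (1.64), Iigp2 (1.43), Igtp (1.31) and Gbp3 (0.82) and smaller for Gbp4 (-0.79), each by limma's test of the difference between the responses. Array and slide cannot be told apart from cell type in these comparisons. At 1 h neither can DMSO, which the BMDM control received and the EPM control did not. For Tgtp, the other probe gave -0.14 (adjusted p = 0.342). Groups of 2 replicates are too small to look for outlying samples.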

How the results depend on the processing

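The 12 h calls of all 8 members in EPM and in BMDM were made under each alternative tried, with that of Gbp1 built into its selection. With array means as samples, 0 members passed at 1 h in EPM, BMDM and B cells, and 0 differences between the macrophage types passed at 1 h or 12 h, where 4 had an unadjusted p under 0.05 at 12 h. The comparisons between controls of a cell type could not be fitted there, since these arrays are the replicates. The change between these controls is part of the spread in that fit, so its lost calls cannot show what differences between arrays alone would do. Of the B cell calls at 1 h (2 members), 1 was left with the offset of 16, with no quantile normalization and with the mean of probes, 0 with the processed signal, and 0 to 1 without any single replicate, while 4 were called in the authors' table and with exchanged labels. At 12 h in B cells these last gave 3 each in place of 0, and for the B cell controls 0 and 2 in place of 4. Directions turned for Igtp in B cells at 1 h (0.29 in the authors' table, 0.33 exchanged) and between the B cell controls (-0.01 and -0.03), for Gbp2 in B cells at 12 h (-0.41 and -0.51), for Gbp2 between early B cells and BMDM with no quantile normalization (-0.25), and for the Gbp4 response difference at 12 h with the processed signal (1.16). The other probe of Tgtp turned the change at 1 h in EPM (0.05) and BMDM (0.03), the early difference of B cells from EPM (-0.04) and the response difference at 12 h (-0.14). The cause was not tested, except that exchanged labels and the authors' table share the same B cell assignment. With the replicate block, Iigp2 in BMDM (-0.29) and in B cells at 1 h (0.33, 3 B cell members called) and, between the B cell controls, Gbp1 (-0.16, adjusted p = 0.0353) and Iigp2 (0.34, adjusted p = 0.0119) also passed, and no other call changed. Signals of Gbp1 in all cells, Gbp4 in EPM and Iigp1 in B cells at or near background limit what can be said of them.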
